A study of Mus musculus with 20 samples.

Results

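The genes followed here are 8 members of the oxygen-sensing pathway in immunoprecipitations of RNA with iron regulatory protein 1 (IRP1). They are the hypoxia-inducible factor (HIF) subunit genes Epas1, Hif1a, Hif3a and Arnt, the HIF prolyl hydroxylase genes Egln1, Egln2 and Egln3, and Vhl. Members were taken by gene symbol and not by any measured value, though with earlier results of these data known. They comprise all 24 probe sets annotated to these symbols alone, of 45037 probe sets measured: 2 for Epas1, 4 for Hif1a, 6 for Hif3a, 5 for Arnt, 2 for Egln1, 1 for Egln2, 2 for Egln3 and 2 for Vhl. Every one of the 24 was tested, since no filter on dim probe sets was used, and 9 of them had a mean log2 signal below 5 over the 20 arrays.

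HIF is a pair of proteins, an oxygen-regulated alpha subunit and the stable subunit ARNT. In the presence of oxygen and ferrous iron the EGLN enzymes hydroxylate the alpha subunit, and VHL, the recognition part of a ubiquitin ligase, then directs it to degradation. IRP1 binds a hairpin in certain mRNAs, the iron-responsive element (IRE), and represses translation when the hairpin lies in the 5' UTR. Among these genes Epas1, which encodes HIF-2 alpha, carries such an element in its 5' UTR, and the others serve as its comparison. HIF-2 alpha is known from vascular endothelium, and in enterocytes it drives genes of iron absorption.

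The series covered duodenum, liver, spleen, bone marrow and brain of C57BL6/J mice, female and male mixed. Each IRP1 reaction combined 50 µg of total RNA with His-tagged recombinant IRP1, purified from E. coli, and an anti-IRP1 polyclonal antibody from rabbit. Each control reaction held the same RNA and antibody without the protein. There were 2 IRP1 and 2 control arrays per tissue, 20 arrays in 10 groups. The mice that gave duodenum, liver and spleen had been on iron-poor food, with less than 10 mg iron per kg, for 21 days from weaning, whereas those that gave bone marrow and brain were 8 to 10 weeks old and ate a diet of normal iron content. Diet and age therefore go with tissue and cannot be told apart from it. RNA was pooled per tissue from 4 to 6 mice according to the design text, so no array stands for a single mouse. Whether both reactions of a group drew on the same pool is not given in the sources used here, and p-values measure only the spread between these arrays. The source label of the control samples also lists recombinant IRP1. The titles and the design text, which state that it was left out, were followed. A control array holds what the antibody and beads recover without IRP1, not total RNA.

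Arrays of one group correlated at 0.983 to 0.992 over all probe sets, and arrays of different tissues at 0.745 to 0.951. IRP1 and control arrays of the same tissue correlated at 0.978 to 0.994, so replicates were no closer than arrays of the other reaction. Markers of the labelled tissues were high where they belong. The 7 hepatocyte markers averaged 12.97 in IRP1 and 13.38 in control arrays of liver, and at most 7.71 in any other group. The duodenum arrays also carried markers of pancreatic acinar cells (mean of 7 markers 13.32 in IRP1 and 13.78 in control arrays), as did the spleen arrays (10.13 and 9.89). Hybridization controls, spiked in before hybridization, were lower than on the median array in spleen IRP1 replicate 2 (log2 difference -1.06), spleen control replicate 2 (-1.26) and bone marrow control replicate 1 (-0.74).

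Epas1 mRNA was recovered above the control reactions by both of its probe sets, averaged over the 5 tissues. Probe set 1435436_at was 2.54-fold higher with IRP1 (log2 difference 1.35, SE 0.15, 95% interval 1.03 to 1.66, limma adjusted p = 8.69e-05). Probe set 1449888_at was 3.33-fold higher (log2 difference 1.73, SE 0.12, 95% interval 1.49 to 1.98, limma adjusted p = 2.61e-07). An adjusted p under 0.05 was taken as a call throughout, and 0.773% of all probe sets were called higher in this mean of 5 tissues and 1.03% lower. Ranked by size of the mean difference, the Epas1 probe sets stood 52nd and 30th among 45037. Both probe sets had both IRP1 arrays above both control arrays in all 5 tissues, a pattern that 0.409% of all probe sets showed.

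The values of 1449888_at by tissue, on the log2 scale, were as follows. In duodenum this probe set read 9.55 and 8.53 in the IRP1 arrays, against 7.10 and 7.28 in the controls. In liver it read 8.69 and 9.07 with IRP1, against 6.93 and 6.54. Both IRP1 arrays lay above both controls by more than 1 log2 unit in these tissues, and the difference was called in duodenum (3.61-fold, log2 1.85, SE 0.26, adjusted p = 0.0062) and in liver (4.43-fold, log2 2.15, adjusted p = 0.00242). In spleen it read 7.62 and 7.50 with IRP1, against 6.07 and 5.68 in the controls. In brain it read 7.76 and 7.45 with IRP1, against 5.47 and 5.23. The spleen and the brain differences were called as well (spleen 3.20-fold, log2 1.68, adjusted p = 0.0154; brain 4.77-fold, log2 2.26, adjusted p = 0.000592). In bone marrow it read 6.57 and 6.45 with IRP1, against 5.77 and 5.78 in the controls, and this difference was not called (log2 0.74, SE 0.26, adjusted p = 0.867).

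The duodenum call of 1449888_at was lost without IRP1 replicate 1 (log2 1.34, adjusted p = 0.138), without control replicate 1 (1.76, adjusted p = 0.132) and without control replicate 2 (1.95, adjusted p = 0.0683). The spleen call was lost without control replicate 1 (1.87, adjusted p = 0.0838), IRP1 replicate 2 (1.74, adjusted p = 0.0782) or control replicate 2 (1.48, adjusted p = 0.272), of which the last 2 carried low hybridization controls.

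Probe set 1435436_at gave another order of tissues, with bone marrow first instead of last. In bone marrow it read 10.68 and 10.51 with IRP1, against 7.14 and 8.16 in the controls. The IRP1 values were close together, the controls lay far below and apart from each other, and the difference was called (7.70-fold, log2 2.94, SE 0.34, adjusted p = 0.000456). The lower of these controls, replicate 1, is one of the arrays with low hybridization controls, and without it the difference was 2.43 and still called. In duodenum this probe set read 13.14 and 12.62 with IRP1, against 12.28 and 11.66. In liver it read 12.62 and 12.63 with IRP1, against 12.31 and 11.67. Neither of these differences was called, although the IRP1 arrays were the higher ones in both tissues (log2 0.91, adjusted p = 1, and 0.63, adjusted p = 0.427). In spleen it read 12.66 and 13.33 with IRP1, against 11.86 and 12.00 in the controls (log2 1.06, adjusted p = 0.342). In brain it read 12.60 and 12.55 with IRP1, against 11.76 and 11.03 (log2 1.18, adjusted p = 0.459). The spleen difference was called with the spread of each array's values as a covariate (log2 1.50, adjusted p = 0.0246), as was the brain difference (1.56, adjusted p = 0.0209).

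**Figure D1:**
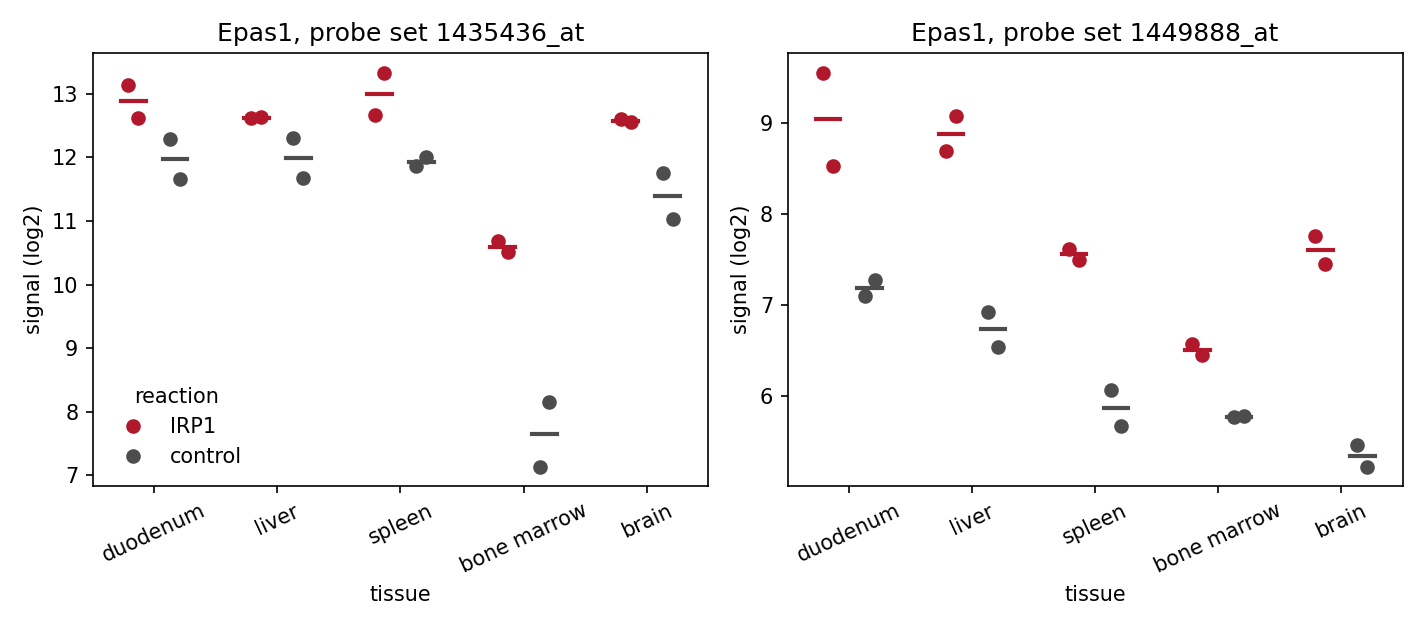
Log2 signal of both Epas1 probe sets on every array, by tissue on the horizontal axis, with IRP1 reactions in red and control reactions in grey; points are arrays and lines are group means (n = 2). The red points lie above the grey ones in all 5 tissues for both probe sets, with the widest gap in bone marrow for 1435436_at (10.60 against 7.65) and in brain for 1449888_at (7.60 against 5.35).

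Of the 10 comparisons of an Epas1 probe set within a tissue, 5 were called higher and 0 lower. Calls within a tissue were rare in the whole table. The share of all probe sets called higher was 0.0799% in duodenum, 0.091% in liver, 0.0688% in spleen, 0.127% in bone marrow and 0.0866% in brain. The share called lower was 0.0244% in duodenum, 0.0933% in liver, 0.0333% in spleen, 0.00444% in bone marrow and 0.0377% in brain.

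Whether IRP1 recovered Epas1 to a different extent in different tissues was tested directly. For 1435436_at the bone marrow difference exceeded the mean of the other 4 tissues by 2.00 log2 (2.94 against 0.95, SE 0.37, unadjusted p = 6.6e-05), which did not pass adjustment over all probe sets (limma adjusted p = 0.425). Without bone marrow control replicate 2 the excess was 2.51. That fit kept control replicate 1, an array with low hybridization controls, as the only bone marrow control. Leaving out control replicate 1 instead lowered the bone marrow difference, as given above, and with it the excess. For 1449888_at bone marrow fell short of the other tissues by -1.25 (0.74 against 1.98, SE 0.29, unadjusted p = 0.000586, limma adjusted p = 0.494). The probe sets of the same gene thus placed bone marrow at opposite ends, and neither placement was called. Over all 24 member probe sets none was called in such a contrast for any tissue by limma. In the whole table these contrasts called 0% of probe sets for duodenum, 0.00666% for liver, 0% for spleen, 0.00222% for bone marrow and 0.0222% for brain. An F-test of all differences between tissues called 0 of the 24 members and 0.0111% of all probe sets. The F values of Epas1 were 7.47 at 1435436_at (limma adjusted p = 0.66) and 5.31 at 1449888_at (limma adjusted p = 0.93).

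None of the 22 probe sets of the other 7 genes was called in the mean of 5 tissues, higher or lower, by limma, and 3 of them had an unadjusted p under 0.05, as did 16.4% of all probe sets. Their median log2 difference was -0.04, with a range of -0.33 to 0.22, beside a median of -0.01 over all probe sets. In single tissues 0 of their 110 comparisons were called, and their medians lay between -0.09 in liver and 0.07 in spleen. No other member had both IRP1 arrays above both controls in at least 4 tissues, which 1.39% of all probe sets had.

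Hif1a, the alpha subunit of HIF-1, was measured at 9.84 on average by 1427418_a_at. Its difference was -0.28 (SE 0.14, 95% interval -0.57 to 0.02, adjusted p = 0.345), and the IRP1 and control arrays overlapped in 4 of 5 tissues. In liver it read 8.74 and 8.86 with IRP1, against 9.57 and 9.33 in the controls, a difference of -0.65 that was not called. A second Hif1a probe set, 1416035_at, differed by -0.08 (SE 0.09, 95% interval -0.29 to 0.12). The intervals of both Hif1a probe sets end below the mean difference of either Epas1 probe set. The remaining Hif1a probe sets had mean signals below 5 and differed by 0.02 (1431981_at) and -0.11 (1448183_a_at).

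Hif3a, a further alpha subunit, some forms of which inhibit the others, differed by -0.11 at 1425428_at (95% interval -0.28 to 0.07) and by 0.13 at 1425429_s_at (-0.04 to 0.30). Its other 4 probe sets had mean signals below 5. One of them, 1459052_at, read 4.47 and 4.56 with IRP1 in bone marrow, against 5.87 and 4.64 in the controls. There the control arrays disagreed by more than 1 log2 unit, and the difference of -0.74 was not called. Without control replicate 2 it was -1.35, which rests on control replicate 1 alone, an array with low hybridization controls.

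Arnt, the common partner of the alpha subunits, differed by -0.24 at 1437042_at (SE 0.10, 95% interval -0.44 to -0.03, unadjusted p = 0.0264, adjusted p = 0.229). With IRP1 this probe set lay below both controls in duodenum, liver and brain, and above both in bone marrow. The other 4 Arnt probe sets differed by -0.14 to 0.06.

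Egln1, which encodes PHD2, the main oxygen sensor of the family in most cells, came nearest to a call among the other genes, in the direction opposite to Epas1. Probe set 1423785_at read 9.72 and 9.84 with IRP1 in duodenum, against 10.04 and 9.90 in the controls. In liver it read 8.43 and 8.69 with IRP1, against 8.90 and 9.11. In spleen it read 8.59 and 9.01 with IRP1, against 9.14 and 9.31. The IRP1 arrays were the lower ones in each of these tissues, in duodenum by a narrow margin. In bone marrow it read 8.77 and 8.68 with IRP1, against 8.85 and 9.09. In brain it read 9.68 and 10.09 with IRP1, against 10.14 and 10.36. IRP1 was thus below both controls in all 5 tissues, as in 0.147% of all probe sets. The mean difference was -0.33 (0.794-fold, SE 0.08, unadjusted p = 0.00106, adjusted p = 0.0541), just short of the threshold. It was called lower after median centring of the arrays (-0.35, adjusted p = 0.0397) and with replicate numbers as a block (-0.33, adjusted p = 0.0422). It was also called without spleen IRP1 replicate 2 (-0.37), bone marrow control replicate 1 (-0.36) or brain IRP1 replicate 2 (-0.37). Under every other alternative, quantile normalization and array SD as a covariate among them, it was not called. The second Egln1 probe set, 1451110_at, had a mean signal of 4.61 and differed by -0.08.

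Egln2, the gene of PHD1, had both IRP1 arrays below both controls in 4 of 5 tissues at its single probe set 1416533_at, without a call (mean -0.24, SE 0.08, unadjusted p = 0.00773, adjusted p = 0.129), with a difference of 0.00 in brain. Together with Egln1 and Vhl 1434708_at it is one of 3 of the 22 probe sets that lay below both controls in at least 4 tissues, as did 1.98% of all probe sets. Egln3, the gene of PHD3 and itself a HIF target, differed by 0.13 at 1418648_at (95% interval -0.08 to 0.35) and by 0.08 at 1418649_at (-0.12 to 0.28). The Egln3 probe sets changed sign between tissues: 1418648_at was -0.42 in duodenum and 0.46 in spleen, neither called. Vhl differed by -0.16 at 1434708_at (95% interval -0.37 to 0.05) and by 0.22 at 1421071_at (0.00 to 0.45). At 1434708_at the IRP1 arrays lay below both controls in duodenum, liver, spleen and brain, and above both in bone marrow (8.10 and 7.98 with IRP1, against 7.27 and 7.93).

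**Figure D2:**
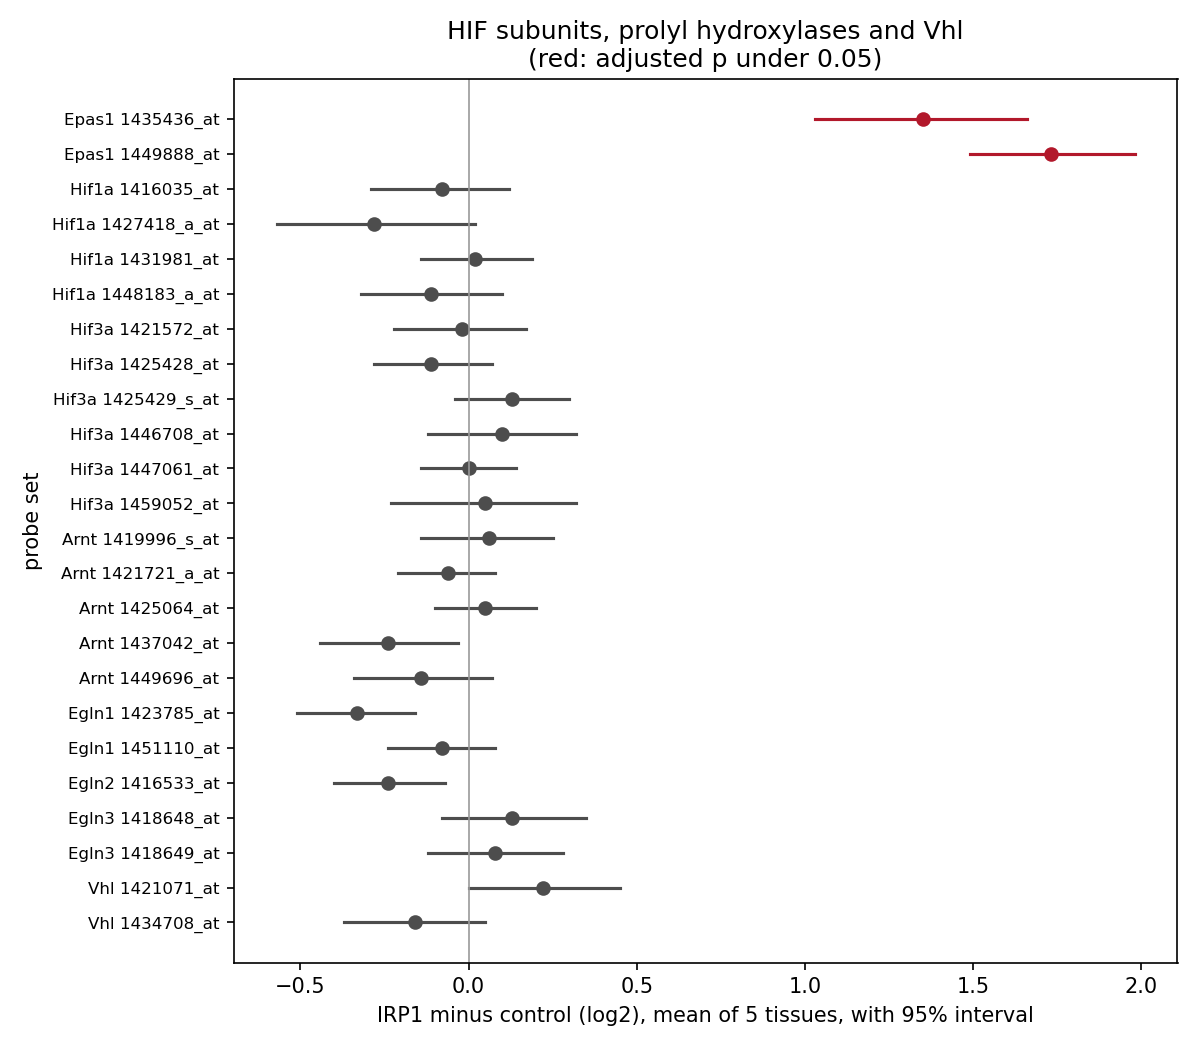
Mean over 5 tissues of the log2 difference IRP1 minus control for each of the 24 member probe sets, with 95% intervals from the model; red marks an adjusted p under 0.05. The Epas1 probe sets stand at 1.35 and 1.73, and the other 22 lie between -0.33 and 0.22.

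**Figure D3:**
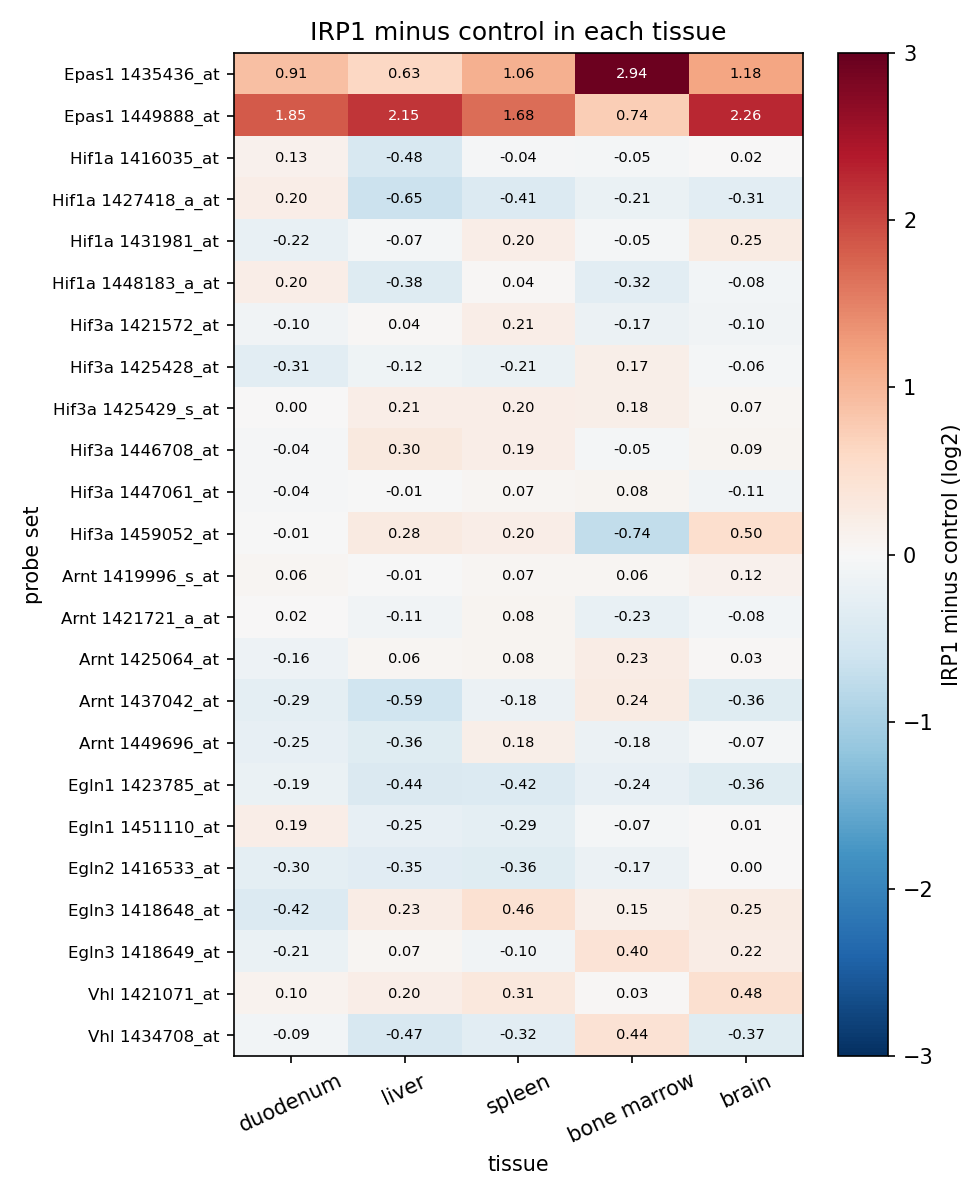
Log2 difference IRP1 minus control of each member probe set (rows) in each tissue (columns), from blue (lower with IRP1) through white to red (higher with IRP1). The Epas1 rows run from 0.63 to 2.94 and the other rows from -0.74 to 0.50.

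The difference between Epas1 and each other gene was tested on the arrays themselves. Within each array the signal of another member, read by whichever of its probe sets was highest on average, was subtracted from that of Epas1 on the log2 scale, and IRP1 labels were exchanged within tissues in all 7776 arrangements. For 1449888_at the IRP1 difference of Epas1 exceeded that of the other gene by 1.60 (Egln3) to 2.07 (Egln1). For 1435436_at the excess was 1.21 (Egln3) to 1.68 (Egln1). It was above 0 in 5 of 5 tissues for each of the 14 pairs. The exact permutation p, two-sided, was 0.000257 to 0.000772, the lower value being the smallest this design can give, and after adjustment over the 14 pairs it was at most 0.000772. The narrowest single differences were 0.40 for 1435436_at over Egln3, in one tissue, and 0.30 for 1449888_at over Vhl. The test was repeated leaving out each tissue in turn, under quantile normalization and with another probe set of the other gene. The excess of 1435436_at then moved between 0.82, over Egln3 without bone marrow, and 1.85. That of 1449888_at moved between 1.43 and 2.34, and the adjusted permutation p was at most 0.00592. Median centring and a floor at log2 5 could not change these values. A constant per array cancels within an array, and no value used here lay below the floor.

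Levels in the control reactions were compared between tissues to show where each transcript was present in the recovered RNA. Epas1 at 1435436_at averaged 11.99 ± 0.45 in liver, 11.97 ± 0.44 in duodenum, 11.93 ± 0.10 in spleen, 11.40 ± 0.52 in brain and 7.65 ± 0.72 in bone marrow (SD, n = 2 each). No call separated the first 4 tissues, the widest gap among them being 0.60 between liver and brain (adjusted p = 0.17), though with array SD as a covariate this gap was 0.96 and called (adjusted p = 0.00982). Bone marrow stood apart below all of them, by 4.34 against liver (20.3-fold higher in liver, adjusted p = 1.56e-08) and by -3.74 against brain (adjusted p = 7.09e-08). Without bone marrow control replicate 1 the liver difference was 3.83. In RNA recovered by control reactions, fewer cells of a type, less RNA per cell and less background recovery cannot be told apart.

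At 1449888_at the order of Epas1 was duodenum 7.19, liver 6.73, spleen 5.88, bone marrow 5.77 and brain 5.35. No call separated duodenum and liver (0.46, adjusted p = 0.229) or any pair of the 3 lower tissues (adjusted p of 0.134 or more). Spleen minus brain was called (0.53, adjusted p = 0.0465) without duodenum IRP1 replicate 1 or without duodenum IRP1 replicate 2. Liver exceeded spleen by 0.86 (adjusted p = 0.0159), but by 0.66 without liver control replicate 1 (adjusted p = 0.121) or without spleen control replicate 2 (adjusted p = 0.154). Liver exceeded bone marrow by 0.96 (adjusted p = 0.00867), and by 0.76 without liver control replicate 1 (adjusted p = 0.0908). Bone marrow was thus far below brain at 1435436_at, whereas at 1449888_at their difference was not called (0.43, adjusted p = 0.216). At 1449888_at the control levels of spleen, bone marrow and brain lay near the median of all probe sets, 5.5 to 5.58 on those arrays. Whether this probe set could read a lower level in bone marrow was not tested. Over the 20 arrays the Epas1 probe sets correlated at 0.61, and the Egln3 probe sets at 0.92, where the arrays share 5 tissues.

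The mean signal of 10 endothelial marker genes was 6.33 in IRP1 and 6.20 in control arrays of bone marrow, 6.16 and 6.13 in duodenum, 6.85 and 6.98 in liver, 7.30 and 7.37 in spleen, and 6.52 and 6.52 in brain. In control arrays of bone marrow Kdr, a receptor for VEGF, was at 7.27, against 7.51 to 9.61 in the other tissues. Tek (5.9), Cldn5 (6.1) and Sox17 (5.16) were also lowest in bone marrow. Vwf, which megakaryocytes also express, was at 9.65, against 6.83 to 7.95, and was the only marker highest in bone marrow. The remaining markers lay in between there. The part of endothelial content in the Epas1 levels was not tested. Of the 10 endothelial markers 1, the receptor gene Tie1, was called higher with IRP1 in the mean of 5 tissues (log2 0.52, adjusted p = 0.0302), and it is named here because it was the sole call in its list.

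For Egln3 the order of tissues was resolved throughout at one probe set. At 1418649_at its control level was 9.74 ± 0.47 in duodenum, 7.89 ± 0.26 in liver, 6.76 ± 0.03 in bone marrow, 5.78 ± 0.18 in brain and 5.08 ± 0.03 in spleen (SD, n = 2 each), and each neighbouring pair in this order differed. Duodenum exceeded liver by 1.85 (adjusted p = 3.05e-06), liver exceeded bone marrow by 1.13 (adjusted p = 0.000441), bone marrow exceeded brain by 0.98 (adjusted p = 0.00118), and brain and spleen differed by 0.70 (spleen minus brain -0.70, adjusted p = 0.0142). The other Egln3 probe set gave the same order, and of its steps duodenum over liver (0.89, adjusted p = 0.00687) and spleen minus brain (-0.72, adjusted p = 0.0183) were called. Egln1 was at 10.25 in brain and 9.97 in duodenum, a difference that was not called, and lower in spleen at 9.22, liver at 9.01 and bone marrow at 8.97. Duodenum exceeded spleen by 0.75 in Egln1 signal (adjusted p = 0.00474). Egln2 stayed between 10.44 in brain and 10.94 in duodenum, a difference of 0.50 (adjusted p = 0.0311).

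Hif1a at 1416035_at was at 9.73 in brain, 9.41 in spleen, 9.11 in bone marrow, 8.73 in liver and 8.62 in duodenum, and duodenum minus brain was -1.11 (adjusted p = 0.000374). The Hif1a difference between brain and spleen was not called. The brighter Hif1a probe set, 1427418_a_at, gave another order, with 10.57 in spleen, 10.10 in brain, 10.01 in bone marrow, 9.75 in duodenum and 9.45 in liver. Of its differences liver minus spleen was called (-1.12, adjusted p = 0.00886), whereas duodenum minus brain was not (-0.35, adjusted p = 0.421). Vhl at 1434708_at was lowest in liver, at 6.84, and highest in brain, at 7.93 (liver minus brain -1.09, adjusted p = 0.000731), while at 1421071_at no tissue pair was called for Vhl and liver read 6.10. Arnt at 1437042_at ran from 7.65 in liver to 8.31 in duodenum (duodenum minus liver 0.66, adjusted p = 0.0315). The other Arnt probe sets did not share this order: at 1449696_at liver was highest, at 6.47 (duodenum minus liver -0.54, adjusted p = 0.0781), and at 1419996_s_at duodenum minus liver was 0.22 (adjusted p = 0.482). Hif3a at 1425428_at was lowest in liver, at 6.32, whereas at 1425429_s_at it was highest there, at 6.66, so the Hif3a probe sets disagreed.

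Counts of members called between tissues are set here beside the share of all probe sets called in the same comparison. Of the 24 members, 6 were called between duodenum and liver (27.5% of all probe sets), 6 between duodenum and spleen (32.3%) and 5 between duodenum and bone marrow (29.6%). Between duodenum and brain 8 were called (39.6%), between liver and spleen 10 (38.4%), between liver and bone marrow 8 (32.5%) and between liver and brain 9 (40.5%). Between spleen and bone marrow 4 were called (18.4%), between spleen and brain 5 (38.2%) and between bone marrow and brain 5 (41%).

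**Figure D4:**
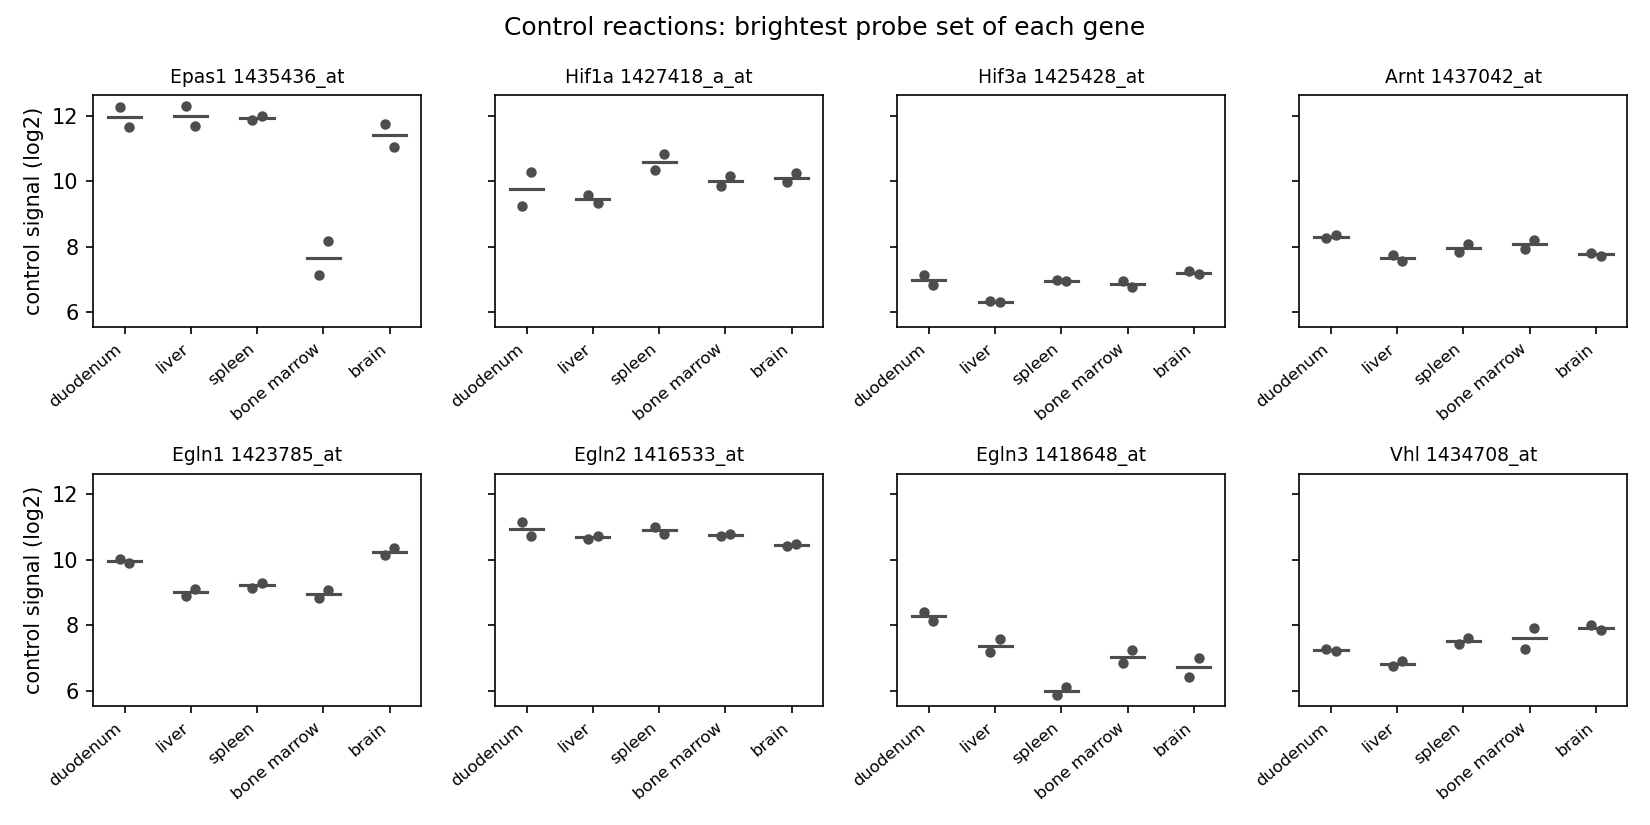
Log2 signal in the control reactions of the probe set with the highest mean of each member gene, by tissue; points are arrays and lines are means (n = 2). Epas1 in bone marrow (7.65) lies far below Epas1 in the other 4 tissues (11.40 to 11.99), and Egln3 is highest in duodenum (8.28); signals of different genes are not comparable with each other.

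Other genes of the pathway were counted with 1 probe set each, the one with the highest mean. Among 17 regulators and cofactors of HIF, all measured, 0 were called higher and 0 lower in the mean of 5 tissues by limma, with a median difference of -0.10 beside -0.01 over all probe sets. They include Hif1an, the asparaginyl hydroxylase of HIF (-0.33, adjusted p = 0.116), and the elongin gene Eloc, whose product sits in the VHL complex (0.27, adjusted p = 0.239). Among 30 HIF target genes, 25 had a probe set of their own and 0 were called in either direction, with a median of -0.11. Vegfa, the endothelial growth factor, differed by 0.05 (adjusted p = 0.852), and the glycolytic gene Ldha by -0.33 (adjusted p = 0.19). Counting any probe set of a gene, 1 regulator (Crebbp) and 2 targets (Aldoa and Pdk1) had a call, all lower.

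Of 5 genes of iron handling that were listed here as HIF-2 targets, 3 were called higher with IRP1 and 0 lower. They were Tfrc, the transferrin receptor (4.58-fold, log2 2.19, adjusted p = 3.96e-08), Slc11a2, the iron importer DMT1 (3.59-fold, log2 1.84, adjusted p = 9.63e-07), and Slc40a1, the iron exporter ferroportin (2.56-fold, log2 1.36, adjusted p = 7.05e-06). All 3 carry IREs of their own, in the 3' UTR for Tfrc and Slc11a2 and in the 5' UTR for Slc40a1. The remaining 2, Cybrd1, a duodenal iron reductase, and Heph, the ferroxidase hephaestin, differed by -0.19 (adjusted p = 0.76) and -0.07 (adjusted p = 0.787).

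Beside the other mRNAs known for an IRE in the 5' UTR, Epas1 fell within their range. Of 5 such genes 3 had a probe set of their own, and all 3 were called higher, with a median of 1.36 log2: Alas2, the first enzyme of heme synthesis in erythroid cells (4.65-fold, log2 2.22, adjusted p = 1.18e-06), Slc40a1 as above, and Fth1, ferritin heavy chain (1.78-fold, log2 0.84, adjusted p = 0.000316). Epas1 was 2.54-fold and 3.33-fold higher. The low end of the range was Fth1, with a mean signal of 14.25, where arrays reached at most 15.35. Whether a ceiling narrowed its difference was not tested. Slc40a1 ran from 0.21 in duodenum to 2.79 in brain. Ferritin light chain Ftl1 was read only by probe sets that name further genes, at 9.23-fold, 5.36-fold and 2.94-fold.

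The genes most like Epas1 over the 20 arrays depended on the probe set. By Pearson correlation of log2 values, those nearest to 1435436_at were Efemp1 (0.853), Cyyr1 (0.849), Thap7 (0.838), Asb13 (0.833) and Maf (0.831), none of them called with IRP1. Those nearest to 1449888_at were Zfp768 (0.884), Fmc1 (0.884), Zdhhc6 (0.877), Srek1ip1 (0.848) and Polr3d (0.845), all 5 called higher in the mean of 5 tissues, by 0.37 to 0.94 log2. Both gene lists rest on the same 20 arrays of 5 tissues and both reactions, so these values describe shared patterns over 10 groups and carry no test.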

How the data were processed

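The deposited values are log2 signals, 1 for each probe set of the Affymetrix Mouse Genome 430 2.0 array, which the authors computed, per the series design text, by RMA or by MAS5 in GCOS followed by quantile normalization. Which of these made the table is not given in the sources used here. About 120 ng of recovered RNA went through two-step amplification per the labels' protocols. The number of arrays limits the precision.

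No pseudocount, floor or filter was applied to the deposited log2 values. The 64 Affymetrix control probe sets were left out of 45101, leaving 45037, of which 34945 name 1 gene (18193 genes), 932 several and 9160 none, by GEO's platform annotation with symbols checked against RefSeq names. All 20 arrays entered a single linear model of 10 groups (limma 3.58.1, R 4.3.3), with 10 residual degrees of freedom and a prior of 6.14. Errors beside differences are model standard errors, those beside group means are SDs of 2 arrays. P-values are two-sided and adjusted by Benjamini-Hochberg over all probe sets within each contrast. The exact permutation tests and figures used Python 3.11.15 with numpy 2.4.6 and matplotlib 3.10.9. Scripts were tested on simulated data.

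Samples were grouped by their titles. Named were all member probe sets, genes called in each list, the 5' UTR IRE genes (1 of the list is not reported here), and the 5 genes correlating best with each Epas1 probe set. A few uncalled genes and Tie1, Crebbp, Aldoa and Pdk1 were named after their values were seen. Members and lists were chosen with earlier results of these data known. Alternatives were quantile normalization, median centring, a floor or a filter at log2 5, array weights, array SD as a covariate, a trended robust prior, a replicate block, single-tissue fits, and leaving out arrays. No genome was used, so no positions are given, and no Epas1 sequence was at hand to print. The table had 0 further columns of values.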

Additional observations from a re-analysis of the deposited data

How the results depend on the processing

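Both Epas1 probe sets kept their direction and call in the mean of 5 tissues under all 29 alternatives, at 1.19 to 1.55 log2 for 1435436_at and 1.63 to 1.84 for 1449888_at. None of these left out a whole tissue. Over the 4 tissues other than bone marrow the mean difference was 0.95 for 1435436_at and 1.98 for 1449888_at. With replicate numbers as a block the means of 5 tissues were 1.35 (adjusted p = 9.57e-05) and 1.73 (adjusted p = 5.43e-06). Same-numbered arrays did not deviate together in every tissue (their deviations correlated at 0.272 in duodenum, -0.074 in liver, 0.533 in spleen, -0.039 in bone marrow and 0.119 in brain), so the numbers were not taken as pairs. With the block Egln1 1423785_at was called lower (-0.33, adjusted p = 0.0422), and no Epas1 call changed.

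Leaving out single arrays moved 1449888_at between 1.34 and 2.36 in duodenum and between 1.48 and 1.87 in spleen, where the call was lost in 3 of the 20 fits for each. Fits to 1 tissue alone also ended its calls in duodenum (1.85, adjusted p = 0.179), spleen (1.68, adjusted p = 0.528) and brain (2.26, adjusted p = 0.228). The spleen call was lost with values below log2 5 set to 5 (1.68, adjusted p = 0.0611) and without the 3 arrays with low hybridization controls (1.54, adjusted p = 0.442). Probe set 1435436_at gained a call with array SD as a covariate in spleen (1.50) and brain (1.56), and in brain under quantile normalization (1.61, adjusted p = 0.0147). The number of other members called lower was 0, 1 under median centring and 1 with the block, and 0 to 1 over single arrays left out. Of the other HIF regulators 2 were called higher under quantile normalization and with array SD as a covariate, and 2 HIF target genes were called lower when any probe set of a gene counted. The smaller fits hold fewer arrays, and the cause of these changes was not tested.

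Over all probe sets the calls in the mean of 5 tissues numbered 348 higher and 464 lower. With array SD as a covariate they were 568 and 144, under quantile normalization 607 higher, and without the 3 arrays 216 and 256. Single arrays left out gave 203 to 477 higher and 118 (without duodenum control replicate 1) to 1352 lower (without brain IRP1 replicate 2). Of 1228 alternative values for Epas1 probe sets 1187 kept both sign and side of the threshold, and 18 turned sign. Of 3884 for the other members 3770 kept both, and 108 turned sign. None of these sign changes was of a difference called in either fit.

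Under quantile normalization signs turned in the mean of 5 tissues for Hif1a 1416035_at (0.01) and Hif1a 1431981_at (-0.01). In liver they turned for Hif3a 1421572_at (-0.02), Arnt 1419996_s_at (0.18) and Egln2 (0.02), in spleen for Hif1a 1416035_at (0.21) and Hif1a 1448183_a_at (-0.02), and in bone marrow for Arnt 1419996_s_at (-0.08). In brain they turned for Hif3a 1425428_at (0.03), Arnt 1425064_at (-0.01) and Egln1 1451110_at (-0.04). Epas1 contrasts of a tissue with the other 4 turned for 1449888_at in duodenum (-0.14) and 1435436_at in brain (0.16), and 1435436_at control differences for duodenum minus spleen (-0.45) and duodenum minus brain (-0.01). With array SD as a covariate signs turned in the mean for Hif1a 1431981_at (-0.03) and Hif3a 1459052_at (-0.08), and in liver for Hif3a 1421572_at (-0.14), Hif3a 1459052_at (-0.04), Arnt 1419996_s_at (0.03) and Vhl 1421071_at (-0.06). The covariate also turned Hif1a 1416035_at (0.08), Hif1a 1448183_a_at (-0.08), Hif3a 1459052_at (-0.07), Arnt 1437042_at (0.03), Arnt 1449696_at (-0.01) and Egln3 1418649_at (0.01) in spleen. It turned Hif1a 1431981_at (0.02) and Hif3a 1446708_at (0.04) in bone marrow, and Hif3a 1425429_s_at (-0.01), Hif3a 1446708_at (-0.02) and Egln1 1451110_at (-0.04) in brain. For Epas1 1435436_at it turned the brain contrast (0.02) and control duodenum minus spleen (-0.09). The floor at log2 5 turned Hif3a 1459052_at in the mean (-0.08) and Hif3a 1421572_at in liver (-0.05). Without the 3 arrays with low hybridization controls signs turned for Hif1a 1416035_at (0.08), Arnt 1419996_s_at (-0.02) and Arnt 1425064_at (-0.02) in spleen, and for Hif3a 1421572_at (0.04), Hif3a 1447061_at (-0.01) and Egln3 1418648_at (-0.04) in bone marrow. Median centring turned Hif1a 1416035_at (-0.01) and Egln1 1451110_at (-0.02) in brain and the Epas1 1435436_at control difference duodenum minus liver (0.04).

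Single arrays left out turned further signs, all of uncalled differences, and the ranges over the 20 such fits follow. In the mean of 5 tissues they were -0.02 to 0.07 for Hif1a 1431981_at, -0.07 to 0.02 for Hif3a 1421572_at and -0.08 to 0.17 for Hif3a 1459052_at. In duodenum they were -0.13 to 0.39 for Hif1a 1416035_at, -0.33 to 0.72 for Hif1a 1427418_a_at, -0.28 to 0.07 for Hif3a 1421572_at and -0.11 to 0.02 for Hif3a 1447061_at. In duodenum they were also -0.30 to 0.28 for Hif3a 1459052_at, -0.04 to 0.17 for Arnt 1419996_s_at, -0.08 to 0.11 for Arnt 1421721_a_at and -0.54 to 0.12 for Egln3 1418649_at. In duodenum they were also -0.09 to 0.29 for Vhl 1421071_at. In liver they were -0.15 to 0.01 for Hif1a 1431981_at, -0.18 to 0.26 for Hif3a 1421572_at, -0.10 to 0.08 for Hif3a 1447061_at and -0.06 to 0.03 for Arnt 1419996_s_at. In liver they were also -0.12 to 0.26 for Egln3 1418649_at and -0.22 to 0.62 for Vhl 1421071_at. In spleen they were -0.20 to 0.13 for Hif1a 1416035_at, -0.01 to 0.40 for Hif3a 1446708_at, -0.03 to 0.43 for Hif3a 1459052_at and -0.04 to 0.18 for Arnt 1419996_s_at. In spleen they were also -0.11 to 0.27 for Arnt 1425064_at and -0.06 to 0.41 for Arnt 1449696_at. In bone marrow they were -0.18 to 0.09 for Hif1a 1416035_at, -0.52 to 0.11 for Hif1a 1427418_a_at, -0.28 to 0.17 for Hif1a 1431981_at and -0.38 to 0.04 for Hif3a 1421572_at. In bone marrow they were also -0.07 to 0.42 for Hif3a 1425428_at, -0.10 to 0.01 for Hif3a 1446708_at, -0.05 to 0.21 for Hif3a 1447061_at and -0.24 to 0.35 for Arnt 1419996_s_at. In bone marrow they were also -0.17 to 0.03 for Egln1 1451110_at, -0.04 to 0.33 for Egln3 1418648_at and -0.13 to 0.18 for Vhl 1421071_at. In brain they were -0.15 to 0.18 for Hif1a 1416035_at, -0.39 to 0.23 for Hif1a 1448183_a_at, -0.29 to 0.10 for Hif3a 1421572_at and -0.16 to 0.03 for Hif3a 1425428_at. In brain they were also -0.18 to 0.31 for Hif3a 1425429_s_at, -0.27 to 0.45 for Hif3a 1446708_at, -0.17 to 0.40 for Arnt 1419996_s_at and -0.19 to 0.03 for Arnt 1421721_a_at. In brain they were also -0.07 to 0.14 for Arnt 1425064_at, -0.30 to 0.17 for Arnt 1449696_at, -0.19 to 0.21 for Egln1 1451110_at and -0.05 to 0.55 for Egln3 1418648_at. For Epas1 contrasts the values were -0.36 to 0.66 for 1449888_at in duodenum against the other 4 tissues, -0.27 to 0.13 for its spleen contrast and -0.58 to 0.16 for 1435436_at in brain against the other 4. Epas1 control levels gave -0.34 to 0.29 for 1435436_at duodenum minus liver, -0.27 to 0.34 for 1435436_at duodenum minus spleen, -0.26 to 0.38 for 1435436_at liver minus spleen and -0.09 to 0.30 for 1449888_at spleen minus bone marrow.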
